A study of Saccharomyces cerevisiae with 8 samples.

Results

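The 10 genes described here take up iron at the surface of the yeast cell. They are *FIT1*, *FIT2*, *FIT3*, *FRE1*, *FET3*, *FTR1*, *SIT1*, *ARN1*, *ARN2* and *ENB1*. They were chosen by gene identifier for that role, with earlier results of these data known. They make up 10 of the 6103 genes listed in the expression table. All 10 were measured in all 8 libraries, and all 10 passed the filter on low values, *ENB1* only through the strains in which it was expressed.

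*Saccharomyces cerevisiae* takes up iron along a pair of routes. On the reductive route, surface reductases such as Fre1p turn ferric into ferrous iron, and the oxidase Fet3p with the permease Ftr1p then carries it across the plasma membrane. On the other route, Fit1p to Fit3p, mannoproteins anchored in the cell wall, retain iron bound to siderophores, the small iron carriers that bacteria and other fungi secrete, and transporters of the Arn family take up these loaded carriers. Yeast makes no siderophores of its own. The activators Aft1p and Aft2p switch the genes of both routes on when iron is short.

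The libraries came from the haploid industrial strain ScY01a, of mating type a and derived from a thermotolerant strain obtained by adaptive evolution, which is the wild type here, and from 3 deletion strains made from it. In *sin3∆*, *srb2∆* and *mig1∆* the entire coding region was exchanged for the KanMX marker, and the lost gene encodes a scaffold of histone deacetylase complexes, a subunit of the Mediator head and a zinc finger repressor that acts in glucose, respectively. All 4 strains were grown for 10 h at 30°C and 200 rpm in YP medium that held glucose at 200 g/L, and each gave 2 libraries. The sources used here do not say whether the 2 libraries of a strain came from separate cultures, so p-values here reflect the spread between these libraries alone.

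The labels were checked first. *SIN3*, *SRB2* and *MIG1* were each listed at 0 in both libraries of their own deletion strain and at 17.1 RPKM or more in every other library, RPKM being reads scaled to gene length and to library size. The 6 a-cell genes summed to 260 to 920 RPKM and the 4 alpha-cell genes to 27.5 to 43.6 RPKM. The a-cell genes *MFA1* and *MFA2* were listed at 0 throughout. Of the alpha-cell genes, *STE3* stood at 0.352 RPKM at most and *MF(ALPHA)1* at 4.41 at most. *MF(ALPHA)2* stood at 15.4 to 21.8 RPKM and *SAG1* at 11.2 to 18.1. The a-cell sum was lowest in *sin3∆*, at 288 and 260 RPKM, against 538 RPKM or more in the other libraries. Genes for ribosomal proteins took 18.5% to 24.8% of the summed values in the wild type and *mig1∆* and 39.3% to 40.9% in *sin3∆* and *srb2∆*. The part of either shift in the results below was not tested. Scaling the libraries without the ribosomal protein genes left the calls of the 10 genes against the wild type at the same counts. That scaling moves each library as a whole and does not test the part of the shift.

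The genes share a short sequence upstream of their start codons. Aft1p and Aft2p are known to bind sites with the core CACCC, and 4 heptamers, TGCACCC or TACACCC or CGCACCC or CACACCC, were searched on both strands in the 500 bases before each start codon. All 10 genes held at least 1 match, against 8.77% of 6000 such windows in the genome, and 6 of the 10 held at least 2, against 0.917% of the windows. TGCACCC alone occurred in 9 of the 10, with *FRE1* the exception, and in 2.33% of all windows. The site was worked out on several of these very genes, so its presence here is a description. Stretches of 60 bases around a match are given here, read 5′ to 3′ on the coding strand from the R64 reference of strain S288c, with the heptamers in capitals. They are the reference bases and not those of ScY01a. The stretches lie at chrIV:1505146-1505205 (*FIT1*, minus strand), chrXV:1059247-1059306 (*FIT2*, plus), chrXV:1061300-1061359 (*FIT3*, minus), chrXII:568317-568376 (*FRE1*, plus), chrXIII:388544-388603 (*FET3*, plus), chrV:461883-461942 (*FTR1*, minus), chrV:27442-27501 (*SIT1*, plus), chrVIII:21199-21258 (*ARN1*, minus), chrVIII:10628-10687 (*ARN2*, minus) and chrXV:21416-21475 (*ENB1*, minus).
FIT1: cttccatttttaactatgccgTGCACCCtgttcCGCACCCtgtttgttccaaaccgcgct
FIT2: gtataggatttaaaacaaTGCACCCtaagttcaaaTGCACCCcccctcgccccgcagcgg
FIT3: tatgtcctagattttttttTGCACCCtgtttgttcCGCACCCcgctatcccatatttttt
FRE1: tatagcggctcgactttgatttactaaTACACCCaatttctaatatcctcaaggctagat
FET3: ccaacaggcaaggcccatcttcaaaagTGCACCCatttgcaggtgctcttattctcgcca
FTR1: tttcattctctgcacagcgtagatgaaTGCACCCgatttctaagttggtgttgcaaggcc
SIT1: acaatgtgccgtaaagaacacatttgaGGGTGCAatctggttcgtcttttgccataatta
ARN1: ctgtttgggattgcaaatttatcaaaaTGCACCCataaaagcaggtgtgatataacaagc
ARN2: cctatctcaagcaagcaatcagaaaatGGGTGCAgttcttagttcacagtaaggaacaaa
ENB1: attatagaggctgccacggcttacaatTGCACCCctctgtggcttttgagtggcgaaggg

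In *SIT1* and *ARN2* the heptamer lies on the opposite strand and therefore reads GGGTGCA. *FIT1* and *FIT3* carry TGCACCC followed by CGCACCC at nearly the same distance from the start codon, from -284 in *FIT1* and -285 in *FIT3*, and both hold a further match at -182 and -184. Their upstream windows were identical at 301 of 470 aligned bases (64%). Those of *FIT1* and *FIT2* were as alike, at 270 of 422 (64%), and those of *FIT2* and *FIT3* less so, at 248 of 448 (55.4%). *FIT2* held the most matches, with 4 in the window.

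**Figure D1:**
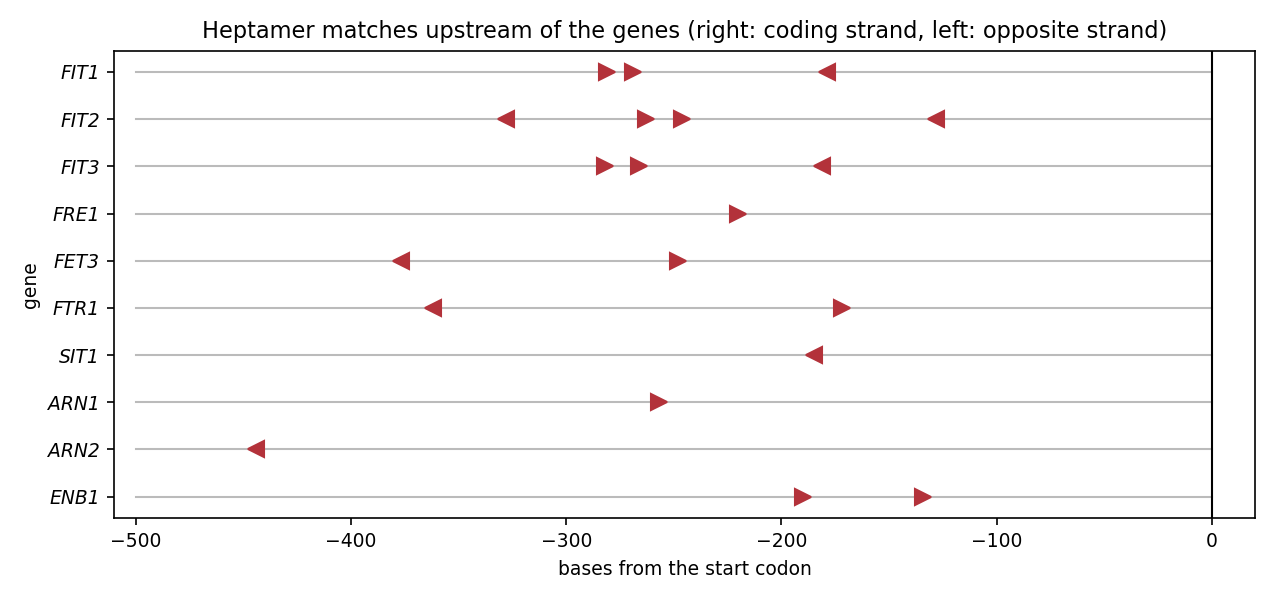
Positions of the heptamer matches in the 500 bases upstream of each gene, in bases from the start codon, with right-pointing marks for the coding strand and left-pointing marks for the opposite strand. *FIT2* has 4 matches, *FIT1* and *FIT3* have 3 each in almost the same places, and *SIT1*, *ARN1*, *ARN2* and *FRE1* have 1 each.

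In the comparison with the wild type, the question was which of these genes differed in level in *sin3∆*, *srb2∆* or *mig1∆* at 30°C. Calls required a change of 2-fold or more together with an adjusted p no higher than 0.05. *ENB1* is counted apart, because it was listed at 0 in the wild type and passed the filter only where it was high, so that its call was set by the filter and the pseudocount. Without *SIN3*, 8 of the other 9 genes rose and none fell, while 17.7% of all 5628 genes tested rose and 12.2% fell. Without *SRB2*, 6 of the 9 rose and none fell, against 15.0% and 14.9% of all genes. Without *MIG1* none of the 9 was called in either direction by limma, where 0.995% of all genes rose and 0.657% fell. Of the 9, 4 had an unadjusted p under 0.05. *ENB1* was listed at 0 in both strains and could not be called there. The median log2 fold change of the 9 genes was 2.29 for *sin3∆*, 1.47 for *srb2∆* and 0.15 for *mig1∆*, beside 0.01, -0.01 and 0.03 over all genes. The 3 comparisons share the same wild type libraries.

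Summed over the 10 genes, the RPKM were 123 and 110 in the wild type, 119 and 112 in *mig1∆*, 343 and 357 in *srb2∆*, and 666 and 659 in *sin3∆*. The sums of the wild type and *mig1∆* overlapped, and those of *srb2∆* and *sin3∆* lay above them and apart from each other. In RNA from a whole culture, more RNA per cell and more cells with the RNA cannot be told apart. The make-up of the sum differed as well. *ARN1* held the largest share in the wild type, ahead of *FTR1*, and *FIT2* held the largest in *sin3∆*, where it gave 24.3% and 26.1% of the sum against 4.41% and 7.97% in the wild type.

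**Figure D2:**
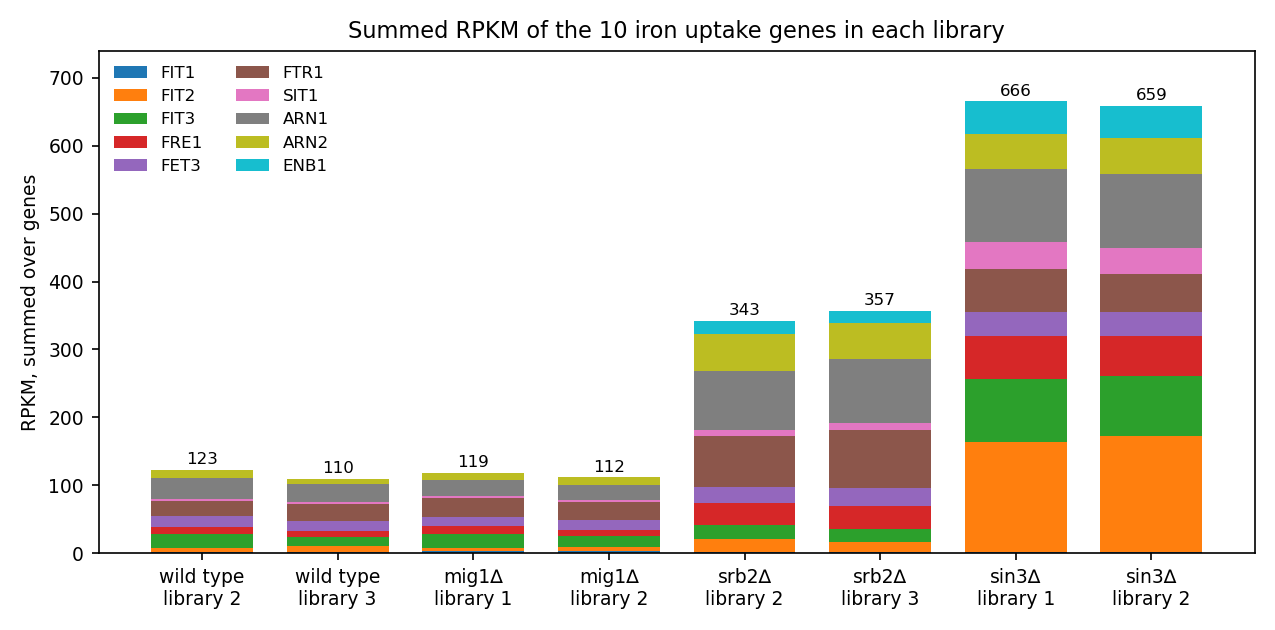
Stacked bars of RPKM summed over the 10 genes, 1 bar per library, coloured by gene. The bars reach 110 to 123 RPKM in the wild type and *mig1∆*, 343 and 357 in *srb2∆* and 659 and 666 in *sin3∆*.

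**Figure D3:**
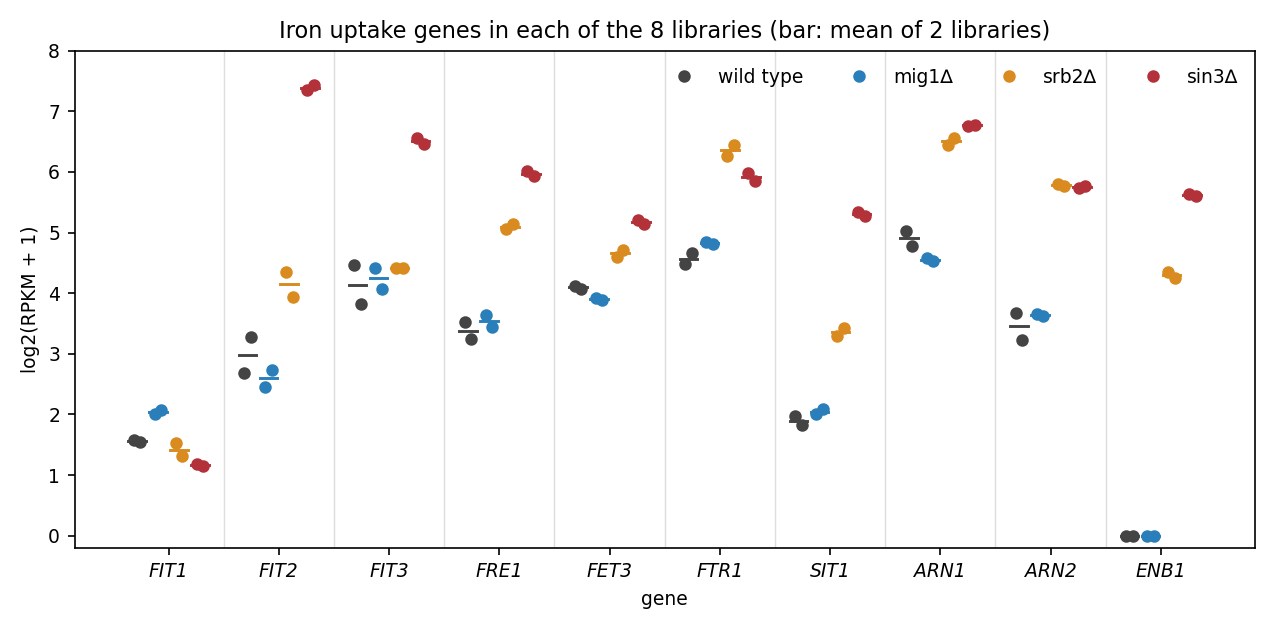
Level of each gene as log2(RPKM + 1) in each of the 8 libraries, with points for libraries, a bar for the mean of the 2 libraries of a strain and colours for strains. *ENB1* sits at 0 in the wild type and *mig1∆*, and *FIT1* is the 1 gene whose lowest libraries are those of *sin3∆*.

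The cell wall mannoproteins showed the widest contrast within the set. *FIT2* (YOR382W, chromosome XV, 1059531 to 1059992, plus strand) lay at 5.43 and 8.74 RPKM in the wild type against 4.50 and 5.64 in *mig1∆*, 19.5 and 14.3 in *srb2∆*, and 162 and 172 in *sin3∆*. The *sin3∆* libraries stood far above all others, those of *srb2∆* lay between, and the wild type and *mig1∆* overlapped. Its log2 fold change against the wild type was 4.41 (SE 0.22, adjusted p = 2.3e-06) in *sin3∆*, the 26th largest rise of all genes, and 1.16 (SE 0.22, adjusted p = 0.00208) in *srb2∆*. The rise in *srb2∆* fell under the fold threshold without wild type replicate 2 (0.86) or without *srb2∆* replicate 2 (0.95), and at a pseudocount of 5 (0.86). The direct difference of *sin3∆* from *srb2∆* was 3.25 (SE 0.22, adjusted p = 2.1e-05).

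*FIT3*, the gene next to *FIT2* and on the opposite strand (YOR383C, chromosome XV, 1060441 to 1061055), had 21.0 and 13.1 RPKM in the wild type against 20.4 and 15.8 in *mig1∆*, 20.3 and 20.3 in *srb2∆*, and 92.9 and 87.0 in *sin3∆*. Only the *sin3∆* libraries lay apart from the wild type. The log2 fold change was 2.37 (SE 0.21, adjusted p = 3.3e-05) in *sin3∆* and 0.28 in *srb2∆*, where the groups overlapped and the 95% interval ran from -0.21 to 0.76. *sin3∆* exceeded *srb2∆* by 2.09 (SE 0.21, adjusted p = 1.2e-04). The neighbours thus kept no fixed ratio, with *FIT2* at 0.259 and 0.668 of *FIT3* in the wild type, 0.957 and 0.706 in *srb2∆*, and 1.74 and 1.98 in *sin3∆*.

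*FIT1* (YDR534C, chromosome IV, 1503314 to 1504900, minus strand) was among the 3 lowest of the set in every library and did not rise with the others. It stood at 1.98 and 1.93 RPKM in the wild type against 1.26 and 1.22 in *sin3∆*, at 1.88 and 1.48 in *srb2∆*, and at 3.04 and 3.23 in *mig1∆*. These levels did not overlap between the wild type and *sin3∆*, nor between either and *mig1∆*, but no comparison with the wild type was called. The log2 fold change was -0.40 (SE 0.17, adjusted p = 0.0648) in *sin3∆* and 0.48 (SE 0.17, adjusted p = 0.114) in *mig1∆*. Between *sin3∆* and *mig1∆* it was -0.88 (SE 0.17, adjusted p = 0.00237), short of the fold threshold. *FIT1* was also the 1 gene of the set with repeated sequence. Of its 50-base words 11.9%, and of its 100-base words 0.672%, occur more than once in the genome, while none of those of the other 9 genes do. Copies within *FIT1* itself were counted and not told apart from copies at other loci. Its coding sequence was identical to that of *FIT3* at 80.7% of 615 aligned bases.

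On the reductive route, *FRE1* (YLR214W, chromosome XII, 568567 to 570627, plus strand), the main surface reductase for ferric and cupric ions, had 10.5 and 8.43 RPKM in the wild type against 11.4 and 9.88 in *mig1∆*, 32.3 and 34.1 in *srb2∆*, and 63.6 and 60.04 in *sin3∆*. The strains fell in 3 tiers, with the wild type and *mig1∆* overlapping. The log2 fold change was 2.59 (SE 0.12, adjusted p = 1.5e-06) in *sin3∆* and 1.72 (SE 0.12, adjusted p = 9.5e-06) in *srb2∆*. *sin3∆* lay above *srb2∆* by 0.88 (SE 0.12, adjusted p = 5.6e-04), under the fold threshold.

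Fet3p, a multicopper oxidase that needs copper to work, and Ftr1p, the permease, act as 1 complex, but their mRNAs moved by different amounts. *FET3* (YMR058W, chromosome XIII, 388822 to 390732, plus strand) had 16.4 and 15.9 RPKM in the wild type against 14.1 and 13.8 in *mig1∆*, 23.3 and 25.1 in *srb2∆*, and 36.1 and 34.4 in *sin3∆*. It rose in *sin3∆* by a log2 fold change of 1.08 (SE 0.08, adjusted p = 1.3e-05), the smallest called rise of the set, which fell to 0.93 at a pseudocount of 5. In *srb2∆* the difference was 0.56 (SE 0.08, adjusted p = 4.1e-04), under the fold threshold although the libraries did not overlap.

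*FTR1* (YER145C, chromosome V, 460526 to 461740, minus strand) had the reverse order of the deletion strains. It stood at 21.3 and 24.3 RPKM in the wild type against 27.8 and 27.0 in *mig1∆*, 62.3 and 57.0 in *sin3∆*, and 75.9 and 86.6 in *srb2∆*. Besides *FTR1*, only *ARN2* and *FIT1* of the 10 genes had a higher mean in *srb2∆* than in *sin3∆*. The log2 fold change was 1.35 (SE 0.10, adjusted p = 1.4e-05) in *sin3∆* and 1.79 (SE 0.10, adjusted p = 3.4e-06) in *srb2∆*, and *sin3∆* lay 0.44 below *srb2∆* on that scale (difference -0.44, SE 0.10, adjusted p = 0.00689), under the fold threshold. The ratio of *FTR1* to *FET3* RPKM was 1.30 and 1.53 in the wild type against 1.73 and 1.66 in *sin3∆*, 1.97 and 1.96 in *mig1∆*, and 3.25 and 3.45 in *srb2∆*.

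The 4 siderophore transporters of the Arn family, identical to each other at 57.2% to 62.3% of aligned coding bases, were all higher in *sin3∆* and *srb2∆* than in the wild type, *SIT1*, *ARN1* and *ARN2* by the test and *ENB1* from a listed 0. Their summed RPKM were 46.5 and 37.3 in the wild type, 37.4 and 36.7 in *mig1∆*, 170 and 175 in *srb2∆*, and 248 and 248 in *sin3∆*. They are known to differ in the siderophores they prefer, which include ferrichromes for *ARN1*, triacetylfusarinine C for *ARN2*, ferrioxamine B for *SIT1* and enterobactin for *ENB1*. All 4 lie 8.3 to 27.7 kb from a chromosome end, *FIT1*, *FIT3* and *FIT2* lie at 27.0, 30.2 and 31.3 kb, and *FTR1*, *FET3* and *FRE1* lie 115.1 kb or farther.

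*SIT1* (YEL065W, chromosome V, 27657 to 29543, plus strand) differed most of the 4 between *sin3∆* and *srb2∆*. It had 2.92 and 2.53 RPKM in the wild type against 3.02 and 3.24 in *mig1∆*, 8.86 and 9.76 in *srb2∆*, and 39.7 and 37.7 in *sin3∆*. The *sin3∆* and *srb2∆* libraries lay apart from each other and from the rest. Its log2 fold change was 3.41 (SE 0.11, adjusted p = 3.5e-07) in *sin3∆* and 1.47 (SE 0.11, adjusted p = 1.5e-05) in *srb2∆*, and the latter fell to 0.89 at a pseudocount of 5. The difference of the deletions was 1.94 (SE 0.11, adjusted p = 9.1e-06).

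*ARN1* (YHL040C, chromosome VIII, 19088 to 20971, minus strand) was the highest of the 10 genes by RPKM in the wild type and in *srb2∆*. It had 31.8 and 26.4 RPKM in the wild type against 22.8 and 22.1 in *mig1∆*, 86.3 and 93.9 in *srb2∆*, and 107 and 109 in *sin3∆*. The log2 fold change was 1.86 (SE 0.10, adjusted p = 2.8e-06) in *sin3∆* and 1.60 (SE 0.10, adjusted p = 5.4e-06) in *srb2∆*, and the difference of the deletions was 0.26 (SE 0.10, adjusted p = 0.0523). In *mig1∆* it had the lowest adjusted p of the set, with both libraries below those of the wild type, but its log2 fold change of -0.35 (SE 0.10, adjusted p = 0.0586) was well under the fold threshold.

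*ARN2* (YHL047C, chromosome VIII, 8351 to 10213, minus strand) reached the same level in both deletions within their spread. It had 11.8 and 8.40 RPKM in the wild type against 11.6 and 11.4 in *mig1∆*, 55.0 and 53.3 in *srb2∆*, and 52.1 and 53.6 in *sin3∆*. The log2 fold change was 2.29 (SE 0.14, adjusted p = 4.9e-06) in *sin3∆* and 2.33 (SE 0.14, adjusted p = 4.6e-06) in *srb2∆*. Their difference was -0.04 with a 95% interval from -0.36 to 0.29, so a 2-fold difference either way lies outside it.

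*ENB1* (YOL158C, chromosome XV, 19491 to 21311, minus strand) was listed at 0 in all 4 libraries of the wild type and *mig1∆*, at 19.3 and 18.1 RPKM in *srb2∆*, and at 48.7 and 47.6 in *sin3∆*. No fold or p is given against a gene listed at 0. Whether the strains differ in sequence at this locus, beyond the deletion each carries, was not tested, so its difference between strains cannot be told apart from one of background. Between the strains that expressed it, *sin3∆* exceeded *srb2∆* by 1.32 on the log2 scale (SE 0.12, adjusted p = 8.0e-05). The genes next to it towards the centromere, *IMA2* and *HXT11*, did not follow it. *IMA2*, an isomaltase gene, stayed between 0.997 and 2.97 RPKM in all libraries. *HXT11*, a hexose transporter gene, went the other way, with 37.1 to 45.2 RPKM in the wild type and *mig1∆*, 5.10 and 5.36 in *srb2∆*, and 1.60 and 2.06 in *sin3∆*. On the other side, *YOL159C-A* was listed at 0 everywhere but in *srb2∆*, at 32.2 and 36.3 RPKM. These 3 neighbours were chosen after their values were seen.

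**Figure D4:**
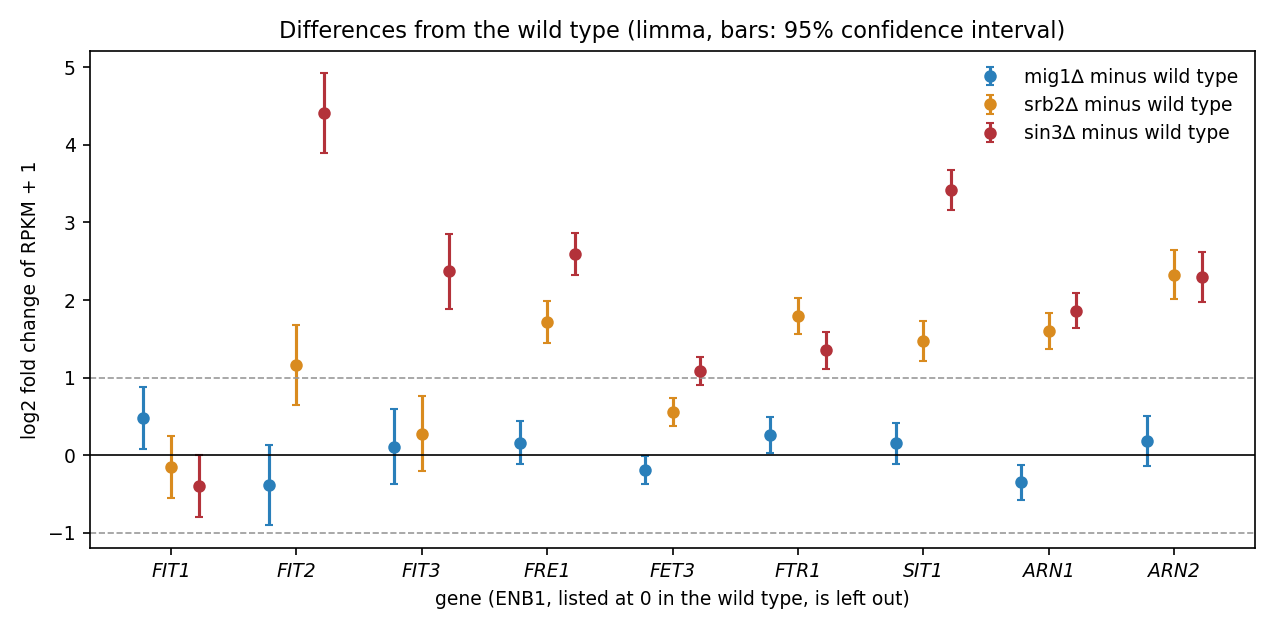
Log2 fold change of RPKM + 1 against the wild type for 9 genes (*ENB1* left out), with 95% confidence intervals, 1 colour per deletion, a line at 0 and dashed lines at the 2-fold threshold. For *sin3∆* 8 points lie above the upper dashed line and *FIT1* lies below 0, for *srb2∆* 6 lie above it, and for *mig1∆* every point lies between the dashed lines.

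Compared with each other, the deletions separated the set. In *sin3∆* against *srb2∆*, 4 of the 10 genes were called higher, *FIT2*, *FIT3*, *SIT1* and *ENB1*, and none lower, where 11.9% of all genes were called higher and 2.95% lower. Each of these 4 belongs to the siderophore route, and *FIT1*, *ARN1* and *ARN2* of the same route were not called. On the reductive route, *FRE1* (0.88, adjusted p = 5.6e-04 by limma) and *FET3* (0.52, adjusted p = 9.4e-04) were also higher but under the fold threshold. *FTR1* was lower (-0.44, adjusted p = 0.00689), also under it. The calls thus do not divide the routes. Leaving out *ENB1*, which is at 0 in *mig1∆*, 8 of 9 genes were called higher in *sin3∆* than in *mig1∆*, against 15.0% of all genes, and 6 of 9 in *srb2∆* than in *mig1∆*, against 11.0%. Over the 8 libraries *FIT1* was negatively correlated with each of the other 9 genes (Pearson r of log2(RPKM + 1) from -0.90 to -0.65), and the other 9 were positively correlated with each other (0.46 to 0.99). The libraries share 1 scaling and fall into a few strains, so these values are a description.

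The genes most like each member over the 8 libraries lay outside the set. Among the 4948 or 4949 other genes averaging 10 RPKM or more, *FIT1* came closest to *SUC2*, the invertase gene (r = 0.977), and to the hexose transporter gene *HXT4* (r = 0.970). *SIT1* came closest to *OPT2* (r = 0.999) and *CAR1* (r = 0.999), *FIT2* to *LYS12* (r = 0.996) and *YMC2* (r = 0.996), *FIT3* to *PHO5* (r = 0.994), *FRE1* to *AFI1* (r = 0.998), and *FET3* to *YIH1* (r = 0.996). *ARN1* came closest to *PFK27* (r = 0.997), *ARN2* to *VAS1* (r = 0.998), *FTR1* to *DBP7* (r = 0.997), and *ENB1* to *MAE1* (r = 0.999). For no member was another member among the 2 closest. The closest other member was ranked among all other genes tested, with no floor at 10 RPKM. It had rank 29 for *ARN1* (*ENB1*, r = 0.98), 37 for *FRE1* and 49 for *FET3*. Its rank was 52 to 247 for *ENB1*, *FIT2*, *SIT1*, *ARN2* and *FIT3*. For *FTR1* it was 371, and for *FIT1* 4489 (*FTR1*, r = -0.65). The other members are few among the genes ranked, so their absence from the 2 closest does not show that the members vary apart.

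Other genes of iron handling were read against the same shares of all genes, which were 17.7% higher and 12.2% lower in *sin3∆*, 15.0% higher and 14.9% lower in *srb2∆*, and 0.995% higher and 0.657% lower in *mig1∆*. *AFT1*, which encodes the main activator of the set, had 16.3 and 14.7 RPKM in the wild type against 33.6 and 29.8 in *sin3∆*, but 17.9 and 19.6 in *srb2∆* and 16.3 and 15.7 in *mig1∆*. Its log2 fold change in *sin3∆* was 0.99 (SE 0.10, adjusted p = 6.6e-05), just under the fold threshold, and that of *AFT2* was 0.77 (SE 0.07, adjusted p = 4.2e-05). Among 9 iron regulators, *TIS11*, which encodes a factor that promotes decay of mRNAs of iron-using proteins, rose in *sin3∆* (1.32, adjusted p = 0.00112) and the glutaredoxin gene *GRX4* fell (-1.13, adjusted p = 2.6e-04). None of the 9 was called by limma in *srb2∆* or *mig1∆*, where 4 and 3 had an unadjusted p under 0.05.

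Of 13 other Aft1p and Aft2p targets, 6 rose in *sin3∆* and 1 fell, with a median log2 fold change of 0.78, and 1 rose in *srb2∆*, with a median of -0.03. The share higher in *sin3∆* was above the 17.7% of all genes, and that in *srb2∆* was below the 15.0%. The risers in *sin3∆* were *ISU1*, *ISU2* and *NFS1*, which serve the making of iron-sulfur clusters, the biotin transporter gene *VHT1*, *FMP23* and *ICY2*. *ICY2* went from 11.1 and 10.1 RPKM in the wild type to 214 and 202 in *sin3∆* (log2 fold change 4.17, SE 0.10, adjusted p = 1.2e-07) and had 9.01 and 7.49 in *srb2∆*. *ISU2* was the 1 riser in *srb2∆* (2.05, adjusted p = 5.3e-06). None of the 13 was called in *mig1∆*, where 3 had an unadjusted p under 0.05.

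Among 13 genes of other ferric reductases and of low-affinity or vacuolar transport, 3 rose in *sin3∆* and 2 in *srb2∆*, and none fell. These shares of risers are close to the 17.7% and 15.0% of all genes. *FRE4*, a reductase gene for siderophore-bound iron, had 6.87 and 7.34 RPKM in the wild type against 46.9 and 47.3 in *sin3∆* and 129 and 128 in *srb2∆*, and was lower in *sin3∆* than in *srb2∆* (-1.43, SE 0.07, adjusted p = 5.1e-06). The low-affinity transporter gene *FET4* had the opposite order, with 30.1 and 28.5 RPKM in the wild type against 178 and 177 in *sin3∆* and 66.2 and 60.2 in *srb2∆* (*sin3∆* above *srb2∆* by 1.48, SE 0.07, adjusted p = 4.5e-06). *FRE3* was the third that rose in *sin3∆* (1.05, adjusted p = 7.9e-04). In the *mig1∆* strain 0 of the 13 were called by limma, and 3 had an unadjusted p under 0.05.

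Fet3p works only once it is loaded with copper, and of 8 genes of copper supply 2 rose and 2 fell in *sin3∆*, 1 rose and 2 fell in *srb2∆*, and 1 rose in *mig1∆*. With so few genes, the counts in *sin3∆* and *srb2∆* are near the 17.7% and 15.0% of all genes that rose and the 12.2% and 14.9% that fell. In *mig1∆*, where 1 of the 8 rose, 0.995% of all genes rose and 0.657% fell. *CTR3*, a high-affinity copper transporter gene, rose in all 3, from 9.44 and 8.12 RPKM in the wild type to 122 and 115 in *sin3∆*, to 101 and 114 in *srb2∆*, and to 17.3 and 23.8 in *mig1∆* (log2 fold changes 3.61, 3.47 and 1.13, SE 0.15 each). *CTR1*, which encodes the other, rose in *sin3∆* (1.60, SE 0.09, adjusted p = 3.0e-06) and stood at 28.1 and 31.1 RPKM in *srb2∆* against 31.3 and 28.3 in the wild type. The reductase gene *FRE7* fell in *sin3∆* (-1.74, adjusted p = 1.3e-05) and in *srb2∆* (-1.001, adjusted p = 2.4e-04).

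Of 18 genes for enzymes that use iron as iron-sulfur clusters or heme, 4 rose and 2 fell in *sin3∆*, 2 rose and 6 fell in *srb2∆*, and none was called in *mig1∆*, where 7 had an unadjusted p under 0.05. The counts in *sin3∆* are about the 17.7% and 12.2% of all genes, and those in *srb2∆* compare with 15.0% higher and 14.9% lower. *HEM15*, which encodes the enzyme that puts iron into heme, had the largest fall in both, from 262 and 261 RPKM in the wild type to 37.6 and 38.9 in *sin3∆* (-2.74, SE 0.07, adjusted p = 1.2e-07) and 46.4 and 44.0 in *srb2∆* (-2.51, SE 0.07, adjusted p = 1.7e-07). The amino acid synthesis genes *ILV3* (2.19) and *LYS4* (2.36) rose in *sin3∆*, and all 4 succinate dehydrogenase genes tested fell in *srb2∆*, *SDH1* by a log2 fold change of -1.99. Of 12 genes of mitochondrial iron-sulfur assembly, none was called in *sin3∆* or *mig1∆*, where 7 and 3 had an unadjusted p under 0.05, and *IBA57* fell in *srb2∆* (-1.01, adjusted p = 1.1e-05).

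**Figure D5:**
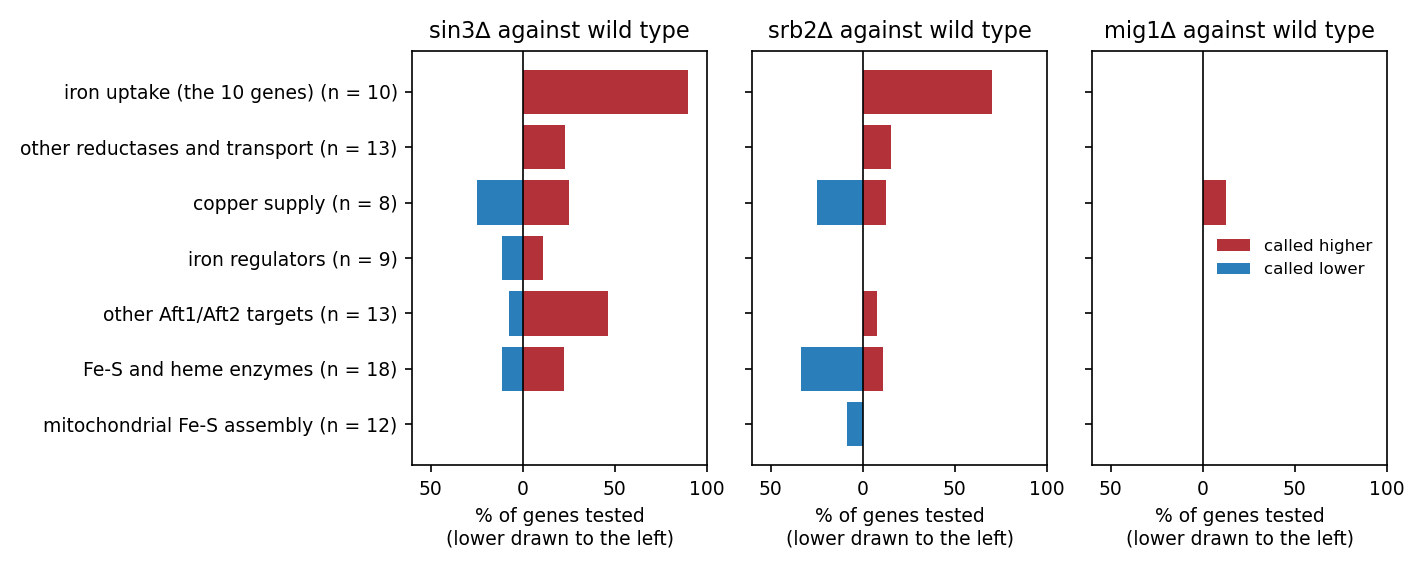
Share of the tested genes of each list called higher (red, to the right) or lower (blue, to the left) against the wild type, in percent, with 1 panel per deletion. The 10 uptake genes, *ENB1* included although it is listed at 0 in the wild type, reach 9 of 10 in *sin3∆* and 7 of 10 in *srb2∆*. Without *ENB1* these counts are 8 of 9 and 6 of 9. Of all genes, 17.7% were called higher in *sin3∆* and 15.0% in *srb2∆*. The largest share of another list called in 1 direction was 6 of 13, in *sin3∆*.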

How the data were processed

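The authors aligned reads to R64 with Bowtie2, computed expression with RSEM, and deposited RPKM values that the table's name calls TMM-normalized, per the labels and the methods of the study. The depth in reads behind a value is unknown, because read counts were not used here. The tables of the authors' own DESeq2 comparisons, which hold fold changes and p-values of called genes, were not used. Of 6103 genes, the 5628 that reached 1 RPKM in 2 or more of the 8 libraries were fitted as log2(RPKM + 1) in limma 3.58.1 (R 4.3.3, trended prior, all 4 strains in 1 fit, 4 residual degrees of freedom). A count test was replaced by limma because the values are RPKM. Fold changes are on the log2(RPKM + 1) scale, which understates changes of low genes. P-values were adjusted by Benjamini and Hochberg over all genes tested. The test was tried on simulated data. Sequences were read from the R64 genome and annotation of RefSeq with Biopython 1.88. The members, the gene lists and the rule for named genes (all members, the deleted genes, called list genes, *AFT1* and *AFT2*, and the 2 most alike genes of each member) were chosen with earlier results of these data known. Alternatives were other scalings, filters and pseudocounts, no trend, 2 strains only, each library left out, and a replicate block.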

Additional observations from a re-analysis of the deposited data

How the results depend on the processing

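No call of the 10 genes changed direction under any alternative. With *ENB1* counted, the number called higher against the wild type ranged from 8 to 9 in *sin3∆* and from 5 to 7 in *srb2∆*. Against *mig1∆* it ranged from 8 to 9 in *sin3∆* and from 6 to 7 in *srb2∆*. It stayed at 4 in *sin3∆* against *srb2∆* and at 0 in *mig1∆* against the wild type. The calls of *ENB1* in *sin3∆* and *srb2∆* against strains where it was listed at 0 were set by the filter and the pseudocount. They were kept throughout but show nothing about stability, and every lost call was of another gene. At a pseudocount of 0.1, 1 gene was called lower in *sin3∆* against *mig1∆*, *FIT1* (-1.27, adjusted p = 0.00278). At a pseudocount of 5, *FET3*, *FIT2* and *SIT1* lost calls as given above, and *FTR1* in *sin3∆* (0.99) and *SIT1* in *srb2∆* (0.82) did so against *mig1∆*. The larger pseudocount shrinks the fold of low genes by construction. Of all genes, the number called higher in *mig1∆* moved from 56 to 32 at a pseudocount of 5, and the number called lower in *sin3∆* against *srb2∆* from 166 to 271 without ribosomal protein genes in the scaling, 252 with quantile normalization and 98 at a pseudocount of 5. Scaling without ribosomal protein genes moved the median of all genes to 0.18 in *srb2∆* against the wild type, -0.12 in *sin3∆* against *srb2∆* (also with quantile normalization) and 0.11 in *srb2∆* against *mig1∆*, and the calls in *srb2∆* against the wild type from 844 higher and 837 lower to 1059 and 658. The same scaling gave 565 higher and 271 lower in *sin3∆* against *srb2∆* (670 and 166 with the deposited scaling, 510 and 252 with quantile normalization) and 802 and 694 in *srb2∆* against *mig1∆* (620 and 828 with the deposited scaling, 665 and 679 with quantile normalization). Same-numbered libraries did not deviate together (r = 0.06 for the wild type and *srb2∆*, 0.02 for *sin3∆* and *mig1∆*), so the numbers were not taken as pairs. With a replicate block the counts of members called higher, *ENB1* included, stayed at 7 in *srb2∆* against the wild type and 9 in *sin3∆* against *mig1∆*. The other comparisons share fewer than 2 numbers and had no block. *FIT1* has no value under a filter at 10 RPKM. Depth in reads is unknown, and 2 libraries per strain limit the precision.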

Other observations

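*ENB1* was 1 of 3 genes in the table that were listed at 0 in every library of the wild type and *mig1∆* and at 5 RPKM or more in every library of *sin3∆* and *srb2∆*, or the reverse. The second was *YOR142W-B*, at 6.39 and 6.54 RPKM in *sin3∆* and 7.40 and 6.39 in *srb2∆*. The third, *KTD1* (YAR028W), ran the other way, at 49.2 and 40.0 RPKM in the wild type against 46.0 and 45.0 in *mig1∆* and 0 in *sin3∆* and *srb2∆*. *CSS3*, which lies next to *ENB1*, was listed at 0 in all libraries but those of *srb2∆*, at 0.954 and 1.02 RPKM. *ZPS1*, further along the same chromosome arm, had 85.3 and 79.7 RPKM in *sin3∆* and 6.41 to 7.91 in all other libraries. These genes were chosen after their values were seen, and whether the strains differ in background at these loci was not tested.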
